A study of Rattus norvegicus with 35 samples.

Results

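The low-dose response of primary rat hepatocytes to 3 triazole fungicides was taken from 9 arrays, 3 each for myclobutanil, propiconazole and triadimefon at 10 uM, which were pooled and set against the 3 arrays of the vehicle DMSO (0.1%). These 12 arrays belong to a series of 35 arrays in 12 groups, which also holds the same triazoles at 30 and 100 uM (9 arrays each), phenobarbital at 200 uM (3 arrays) and PCN at 30 uM (2 arrays). Cells of every group, the vehicle included, were primary hepatocytes, liver cells taken from the animal and kept in culture, exposed through the medium for 72 h. The strain, sex and age of the animals, and how many animals gave cells, are not given in the sources used here. Every title carries 1 of 3 codes (Rs256, Rs293 and Rs304), each group holds at most 1 array per code, and the titles do not say what the code marks. Arrays were therefore compared within the code, and where arrays of 1 group may come from 1 animal the p-values measure only the spread between arrays. The series asks how these fungicides act on rat liver cells, and the 10 uM arrays ask what the 3 share at the lowest dose.

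Triazole fungicides kill fungi by blocking the fungal form of Cyp51, the lanosterol demethylase of sterol synthesis, which also exists in mammals. The molecules share the triazole ring and differ elsewhere: a nitrile group marks myclobutanil, a ketone marks triadimefon, and a dioxolane ring is part of propiconazole. In liver, the receptors CAR and PXR sense foreign compounds and switch on cytochromes P450 of the Cyp2b, Cyp2c and Cyp3a families together with conjugating enzymes and transporters. Phenobarbital is a classical activator of CAR, and PCN (pregnenolone carbonitrile) of rodent PXR. PPARalpha is the receptor that drives fatty acid oxidation in hepatocytes, and SREBP factors drive sterol and fatty acid synthesis.

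The promoters of 2 of the genes that lead the results are shown because CAR and PXR bind pairs of the motif AGGTCA or AGTTCA. They come from RefSeq on build GRCr8 and cover 300 bases each, 250 before the start site. Motifs on either strand are in capitals. TGAACT is AGTTCA read on the other strand. Of the 10 genes named by rule, 7 had a promoter in the table, and Cyp2c6v1 was not among them.
Cyp3a23-3a1 (chr12:14398754-14399053, minus strand): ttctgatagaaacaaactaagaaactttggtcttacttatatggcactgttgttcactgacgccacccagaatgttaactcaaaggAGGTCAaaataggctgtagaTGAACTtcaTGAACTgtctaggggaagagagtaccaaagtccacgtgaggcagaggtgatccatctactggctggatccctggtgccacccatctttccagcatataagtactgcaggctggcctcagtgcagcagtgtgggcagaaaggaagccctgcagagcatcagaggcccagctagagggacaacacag
Ugt2b1 (chr14:21378632-21378931, plus strand): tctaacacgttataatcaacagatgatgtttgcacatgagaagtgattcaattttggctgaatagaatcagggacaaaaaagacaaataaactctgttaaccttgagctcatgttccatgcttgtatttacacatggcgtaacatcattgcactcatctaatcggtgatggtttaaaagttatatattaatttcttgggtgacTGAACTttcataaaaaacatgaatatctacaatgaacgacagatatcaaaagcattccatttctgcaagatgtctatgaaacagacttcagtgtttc
The Cyp3a23-3a1 promoter held a direct repeat of AGTTCA with 3 bases between the copies, from -144 to -130 relative to the start site, and an AGGTCA from -164 to -159. A direct repeat of AGGTCA or AGTTCA with 3 bases between was present in 14 of 33469 promoters of the same length (0.0418%). The Ugt2b1 promoter held a single AGTTCA from -47 to -42, and this motif was present on either strand in 14.5% of all promoters, against 16.2% for AGGTCA. Single motifs were also present in genes with changes below 0, namely Slc27a2 (AGGTCA), Cyp2c13 (AGTTCA) and Apmap (AGTTCA or AGGTCA, by start site). The promoters of Crp and Scd2, with changes above 0, held none. These matches describe letters in the window and do not show that a factor binds there.

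All levels and changes are in units of the deposited values, after the arrays were quantile normalized. That scale is log-like with an unstated base, so no fold is given. If the control transcripts were added at 5, 25 and 100 pM, 0.468 units (SD 0.0214, n = 35 arrays) corresponded to a doubling. Array SDs of the 12 arrays lay between 0.659 and 0.744, and propiconazole at 30 uM in Rs293 stood apart at 0.941. The 8 hepatocyte markers measured lay at or above the 96.9th percentile of all genes, and their summed level was 27.9 to 29.1 in DMSO arrays and 27.7 to 29 in 10 uM arrays. The summed level of 8 macrophage markers was 2.38 to 4.49 with DMSO and 1.84 to 4.85 at 10 uM, that of 11 stellate cell and fibroblast markers 2.92 to 4.99 and 2.79 to 5.44, that of 2 endothelial markers -0.271 to 0.316 and -0.256 to 0.49, and that of 5 cholangiocyte markers 1.34 to 2.81 and 1.49 to 3.41. Of the cholangiocyte markers, Krt19, a keratin of bile duct cells, lay above the DMSO array of its code in 9 of 9 arrays, by 0.25 (SE 0.10). The other markers of that list changed less: Krt7 by 0.023, Epcam by 0.0051, Cldn4 by 0.0038 and Cldn7 by 0.038. One measure of RNA quality moved with the treatment. The difference between the 3' and the 5' probe sets of beta-actin was 0.744 to 0.81 in DMSO arrays and 0.509 to 0.763 at 10 uM, lower than the DMSO array of its code in 9 of 9 arrays (mean change -0.109, two-sided exact permutation within codes p = 0.0469 over 64 arrangements), while that of Gapdh was higher in 4 and lower in 5. The permutation was run for beta-actin only, and its p is not adjusted for that choice. For Gapdh the mean change was -0.00928. The part of cell make-up and of RNA quality in the results below was not tested. In bulk arrays, fewer cells of a type and less RNA per cell cannot be told apart.

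At 10 uM the 3 triazoles together raised 2 of 10490 genes tested, the P450 Cyp2c6v1 and the glucuronosyltransferase Ugt2b1, in limma over all 35 arrays with the code as a block (adjusted p by Benjamini and Hochberg below 0.05, or 0.0191% of genes). None was called lower (0%), and 367 genes had an unadjusted p below 0.05, against 524.5 if p-values were uniform. In single compounds the same fit called 1 gene higher with myclobutanil (0.00953%), 2 with propiconazole (0.0191%) and 1 with triadimefon (0.00953%), and none lower (0% in each), with 61, 402 and 438 genes at an unadjusted p below 0.05. The block mattered for these counts: without it 1 gene, Ugt2b1, was called in the pooled comparison, and with the code as a random block 4 were, with Cyp3a23-3a1 and Crp added. The arrays of Rs304 also decided the count, since without them 0 genes were called (limma, 125 at an unadjusted p below 0.05), and without those of Rs293 4 were. On the values as deposited, with no quantile normalization, 0 genes were called and 125 had an unadjusted p below 0.05.

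Cyp2c6v1, a hepatic P450 of the phenobarbital-responsive Cyp2c family, was the gene most raised at 10 uM. The level of Cyp2c6v1 in codes Rs256, Rs293 and Rs304 was 1.93, 1.42 and 0.92 with DMSO, 2.74, 2.11 and 2.08 with myclobutanil, 3.09, 2.50 and 2.46 with propiconazole and 2.82, 2.03 and 1.94 with triadimefon. The 9 treated arrays all lay above the 3 DMSO arrays, and each code started from its own level, highest in Rs256. The pooled change was 0.99 (SE 0.10, n = 9 against 3 arrays, limma adjusted p = 1.03e-05), and within the codes it was 0.96, 0.79 and 1.24. By compound it was 0.89 with myclobutanil, 1.26 with propiconazole and 0.84 with triadimefon, and each of these passed the test (limma adjusted p = 0.00336, 5.15e-06 and 0.00871). Without the arrays of Rs304 the change was 0.87 (limma adjusted p = 0.0636), and on the values as deposited 1.04 (limma adjusted p = 0.205). Its probe set is of a class that the manufacturer designed to match several transcripts of a gene. Whether closely related Cyp2c transcripts also share in its signal was not tested.

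Ugt2b1 encodes a UDP-glucuronosyltransferase, which conjugates foreign compounds and steroids. The level of Ugt2b1 in codes Rs256, Rs293 and Rs304 was 2.55, 2.31 and 2.50 with DMSO, 3.02, 2.89 and 2.98 with myclobutanil, 3.07, 3.10 and 3.000 with propiconazole and 3.03, 2.89 and 3.02 with triadimefon. No treated array overlapped the DMSO arrays, and the 9 treated arrays lay within 2.89 to 3.10. The pooled change was 0.54 (SE 0.080, limma adjusted p = 0.00232). By compound it was 0.51 with myclobutanil, 0.60 with propiconazole and 0.53 with triadimefon, of which propiconazole passed the test (limma adjusted p = 0.0119) and myclobutanil and triadimefon did not (limma adjusted p = 0.14 and 0.0552). The call was lost without the arrays of Rs293 (change 0.49, limma adjusted p = 0.0824), without those of Rs304 (0.57, 0.48) and without the DMSO array of Rs293 alone (0.47, 0.139).

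The next 3 genes by p did not pass the test and are given as values. Cyp3a23-3a1 encodes a Cyp3a enzyme, the standard readout of PXR in rat liver. The level of Cyp3a23-3a1 in codes Rs256, Rs293 and Rs304 was 3.32, 2.52 and 2.52 with DMSO, 3.56, 3.08 and 3.12 with myclobutanil, 3.67, 3.47 and 3.47 with propiconazole and 3.68, 3.45 and 3.43 with triadimefon. All 9 arrays exceeded the DMSO array of their code, but the groups overlapped because the DMSO array of Rs256 was high. The change was 0.65 (SE 0.13, limma adjusted p = 0.0644), and 0.32, 0.82 and 0.82 within the codes. Without that DMSO array it was 0.87 (limma adjusted p = 0.00272). Crp, C-reactive protein of the acute phase, had levels of 2.90 to 3.09 in the DMSO arrays and 3.13 to 3.40 in the treated arrays, with no overlap. Its change was 0.29 (SE 0.055, limma adjusted p = 0.0644).

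Scd2 encodes a stearoyl-CoA desaturase, which introduces the double bond into newly made fatty acids. The level of Scd2 in codes Rs256, Rs293 and Rs304 was 0.59, 0.90 and 0.049 with DMSO, 0.90, 1.03 and 0.34 with myclobutanil, 1.44, 1.46 and 0.96 with propiconazole and 1.65, 1.74 and 1.17 with triadimefon. Every treated array lay above the DMSO array of its code, the groups overlapped, and the order myclobutanil, propiconazole, triadimefon held in all 3 codes. The pooled change was 0.67 (SE 0.15, limma adjusted p = 0.33). These values come from the brightest Scd2 probe set, with a mean level of 1.02, which is of the same class as that of Cyp2c6v1. The other Scd2 probe sets, at mean levels of 0.298, -0.248 and -0.217, changed less, by 0.288, 0.0897 and 0.0717. In each of them 8 treated arrays, not all, lay above the DMSO array of their code.

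**Figure D1:**
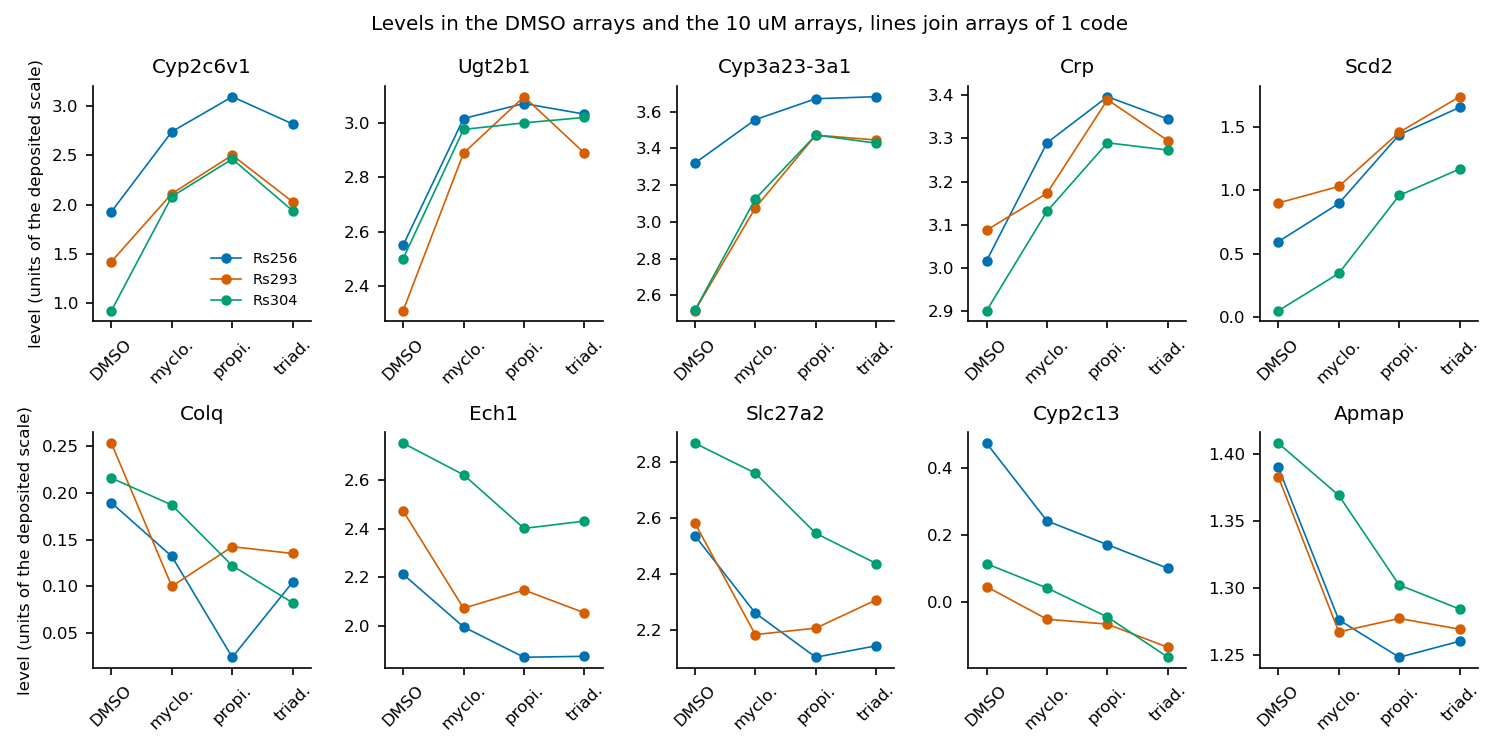
Levels of the 10 named genes (vertical axis, units of the deposited scale after quantile normalization) in the DMSO arrays and in the myclobutanil, propiconazole and triadimefon arrays at 10 uM; each point is 1 array and lines join the arrays of 1 code. For Cyp2c6v1 the treated arrays sit between 1.94 and 3.09, above DMSO arrays of 0.92 to 1.93, and every treated array of the lower row lies below the DMSO array of its code.

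No gene was called lower, so the 5 with the smallest p are given as values (limma adjusted p = 0.934 to 0.973). Ech1 encodes a dienoyl-CoA isomerase of fatty acid breakdown. The level of Ech1 in codes Rs256, Rs293 and Rs304 was 2.21, 2.47 and 2.75 with DMSO, 1.995, 2.07 and 2.62 with myclobutanil, 1.87, 2.15 and 2.40 with propiconazole and 1.87, 2.05 and 2.43 with triadimefon. Slc27a2 encodes a fatty acid and bile acid CoA ligase. The level of Slc27a2 in codes Rs256, Rs293 and Rs304 was 2.54, 2.58 and 2.87 with DMSO, 2.26, 2.18 and 2.76 with myclobutanil, 2.10, 2.21 and 2.54 with propiconazole and 2.14, 2.31 and 2.44 with triadimefon. In both genes every treated array lay below the DMSO array of its code, and the groups overlapped because the codes differed in level. The changes were -0.32 (SE 0.084) for Ech1 and -0.33 (SE 0.089) for Slc27a2. Cyp2c13, a P450 of male rat liver, had a change of -0.20 (SE 0.056), with treated arrays from -0.17 to 0.24 and DMSO arrays from 0.046 to 0.47. Its probe set is of a class that can match related genes. Apmap, a membrane protein with an arylesterase-like domain, was at 1.38 to 1.41 with DMSO and 1.25 to 1.37 at 10 uM (change -0.11 (SE 0.031)), with no overlap. Colq, the collagen-like tail of acetylcholinesterase, was at 0.19 to 0.254 with DMSO and 0.0241 to 0.187 at 10 uM (change -0.11 (SE 0.027)), also with no overlap.

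Across all genes tested, 13 had every treated array above every DMSO array (0.124%) and 18 every treated array below (0.172%). Among them were Cyp2c6v1, Ugt2b1 and Crp on the higher side and Apmap, Colq and Hadh on the lower side. All 9 arrays exceeded the DMSO array of their code in 280 genes (2.67%) and fell short of it in 391 genes (3.73%). The 3 arrays of 1 code share 1 DMSO array, so these 9 directions are not independent.

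The count of calls depended on which arrays entered the fit. When the fit was limited to the 12 arrays of the comparison, with 6 residual degrees of freedom, 159 genes were called, 70 higher (0.667%) and 89 lower (0.848%), among them both genes called over 35 arrays. The median residual SD per gene was 0.0387 in that fit and 0.0571 over 35 arrays, which had 21 residual degrees of freedom. The larger count did not hold under other settings: the same 12 arrays gave 2 calls on the values as deposited (625 genes at an unadjusted p below 0.05), 1 without the block, 13 without the arrays of Rs256, 45 without those of Rs304, 120 without those of Rs293, and between 31 and 261 when single arrays were left out. Calls of that fit are given below as "the 12-array fit", beside those over 35 arrays.

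The CAR and PXR list of P450s and their partners had 13 of 24 members tested. Of these, 1 was called (Cyp2c6v1), 10 lay above 0 and 3 below. Those below were Cyp2a2 (-0.12), Cyp2b3 (-0.038) and Cyp2a1 (-0.035). Cyp2b3 was the only Cyp2b gene among the members tested, so the list holds no other readout of that family. At an unadjusted p below 0.05 (limma), 5 members were higher and 1 was lower. The median change of the 13 members was 0.071 (0.129 on the values as deposited), against -0.00044 (0.0144) over all genes tested, where 49.4% lay above 0. In the 12-array fit 4 members rose (Cyp2c6v1, Cyp3a23-3a1, Cyp3a2 and Cyb5a), or 30.8%, against 0.667% of all genes. The count in that fit was 1 on the values as deposited. The level of Cyp3a2 in codes Rs256, Rs293 and Rs304 was 0.13, -0.27 and -0.27 with DMSO, 0.36, -0.10 and -0.10 with myclobutanil, 0.62, 0.090 and -0.0060 with propiconazole and 0.61, 0.00027 and -0.041 with triadimefon. Cyp3a2, a second Cyp3a enzyme, lay near the median of the arrays and exceeded the DMSO array of its code in 9 of 9 arrays (change 0.29 (SE 0.11), limma adjusted p = 1). Cyb5a, cytochrome b5, which passes electrons to P450s, changed by 0.15 (SE 0.042), higher in 9 of 9 arrays, and Cyp3a9 by 0.096 (SE 0.035), also in 9 of 9. Por, the P450 reductase, changed by 0.062 (SE 0.062) and Alas1, the first enzyme of heme synthesis, by 0.071 (SE 0.12), with errors about as large as the changes or larger. Cyp2c11, the main P450 of the adult male rat, was higher in 8 of 9 arrays (0.16 (SE 0.062)).

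Conjugating enzymes lay on both sides of 0. Of 31 tested, 1 was called higher (Ugt2b1), 17 lay above 0 and 14 below, with a median of 0.0068 (0.0597 on the values as deposited). In the 12-array fit 5 rose (16.1%, against 0.667% of all genes), namely Ugt2b1, Gsta4, Gstm2, Gstm3 and Gstk1. Of these, 4 are glutathione transferases. The count in that fit was 0 on the values as deposited and 2 without the arrays of Rs256. The level of Gstm2 in codes Rs256, Rs293 and Rs304 was 3.02, 2.70 and 2.62 with DMSO, 3.05, 2.81 and 2.71 with myclobutanil, 3.25, 3.13 and 3.07 with propiconazole and 3.27, 3.13 and 3.03 with triadimefon. Gstm2 was thus close to DMSO with myclobutanil (0.076) and higher with propiconazole (0.37) and triadimefon (0.36). Gsta4 changed by 0.22 (SE 0.082) and was higher in 9 of 9 arrays. The glutathione transferase genes are a multigene family whose probe sets may share signal. Of 19 transporters 12 lay below 0 (median -0.0082), but on the values as deposited the median was above 0 (0.0146). The uptake carriers Slco1a1 (-0.17 (SE 0.067)) and Slco1b2 (-0.13 (SE 0.045)) were lower in 9 of 9 arrays, and the efflux pump Abcc2 was higher in 9 of 9 (0.16 (SE 0.12)), a change of 0.046 without the DMSO array of Rs293. Of these 3, Slco1b2 fell in the 12-array fit (limma adjusted p = 0.0355).

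Targets of other xenobiotic sensors were not called over 35 arrays. Among 7 AhR targets, genes of the dioxin receptor, the median was 0.037 and none was called in the 12-array fit either. Cyp1a1 changed by 0.056 (SE 0.071). Cyp1a2 was higher in 9 of 9 arrays, but its level in DMSO arrays spanned 1.01 to 2.53 (change 0.24 (SE 0.19)). Of 21 NRF2 targets, 14 lay above 0 (median 0.041, or 0.0949 on the values as deposited). In the 12-array fit 3 of them rose (14.3%, against 0.667% of all genes), namely Hmox1, Gsr and Tkt. Hmox1, heme oxygenase, was higher in 9 of 9 arrays (0.20 (SE 0.088)).

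Genes of fatty acid oxidation and other PPARalpha targets formed the list with the largest share on one side of 0 among the 22 pathway lists. Of 36 tested, 34 lay below 0 and 14 had an unadjusted p below 0.05, all of these lower, where 207 of all genes tested were lower at that p (1.97%), but none was called over 35 arrays. The median change was -0.11, and it was -0.11, -0.15 and -0.10 within Rs256, Rs293 and Rs304. All 9 arrays lay below the DMSO array of their code in 18 of the 36 (50%), against 3.73% of all genes. In the 12-array fit 12 members fell, or 33.3%, against 0.848% of all genes. They were Cyp4a1, Cyp4a3, Acaa2, Cpt1a, Hadh, Eci1, Decr1, Angptl4, Pdk4, Acot2, Acot3 and Vnn1. That count was 0 on the values as deposited and 0 without the arrays of Rs256. The list's median on the values as deposited was -0.0678, against 0.0144 over all genes.

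Cyp4a1 and Cyp4a3 encode fatty acid omega-hydroxylases, classical PPARalpha targets in rat liver. The level of Cyp4a1 in codes Rs256, Rs293 and Rs304 was 1.34, 1.92 and 2.07 with DMSO, 0.92, 1.37 and 1.96 with myclobutanil, 0.67, 1.35 and 1.65 with propiconazole and 0.58, 1.38 and 1.50 with triadimefon. Every treated array was below the DMSO array of its code, and the smallest drop was that of myclobutanil in Rs304. The change was -0.51 (SE 0.16, limma adjusted p = 1 over 35 arrays and 0.00176 in the 12-array fit). The level of Cyp4a3 in codes Rs256, Rs293 and Rs304 was 2.73, 2.73 and 2.89 with DMSO, 2.51, 2.34 and 2.82 with myclobutanil, 2.29, 2.40 and 2.42 with propiconazole and 2.30, 2.37 and 2.41 with triadimefon. The change of Cyp4a3 was -0.35 (SE 0.14), and -0.36, -0.36 and -0.34 within the codes. Pdk4, the kinase that shuts off pyruvate oxidation in fasting, changed by -0.38 (SE 0.17), lower in 9 of 9 arrays, and Angptl4, a lipase inhibitor, by -0.27 (SE 0.096), lower in 8 of 9.

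Enzymes of mitochondrial beta-oxidation had smaller values, also below 0. The level of Eci1 in codes Rs256, Rs293 and Rs304 was 2.65, 2.91 and 3.05 with DMSO, 2.54, 2.80 and 2.96 with myclobutanil, 2.41, 2.67 and 2.75 with propiconazole and 2.40, 2.64 and 2.79 with triadimefon. Eci1, an enoyl-CoA isomerase, thus changed by -0.21 (SE 0.064), with -0.20, -0.21 and -0.22 within the codes. Acaa2, the mitochondrial thiolase, changed by -0.17 (SE 0.051), Decr1, a dienoyl-CoA reductase, by -0.20 (SE 0.065), and Hadh, a hydroxyacyl-CoA dehydrogenase, by -0.13 (SE 0.058), each lower in 9 of 9 arrays. Cpt1a, which admits fatty acids to mitochondria, changed by -0.27 (SE 0.14), but its DMSO level was 0.72 in Rs256 and at least 1.73 in the other codes. Fabp1, the liver fatty acid binding protein, changed by -0.063, -0.67 and -0.25 within the codes and so rested mainly on Rs293. The receptor gene Ppara itself changed by -0.012 (SE 0.056). Ces1d, a carboxylesterase of lipid breakdown outside the list, had the largest drop of all genes tested (-0.59 (SE 0.17), limma adjusted p = 0.974, lower in 9 of 9 arrays).

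**Figure D2:**
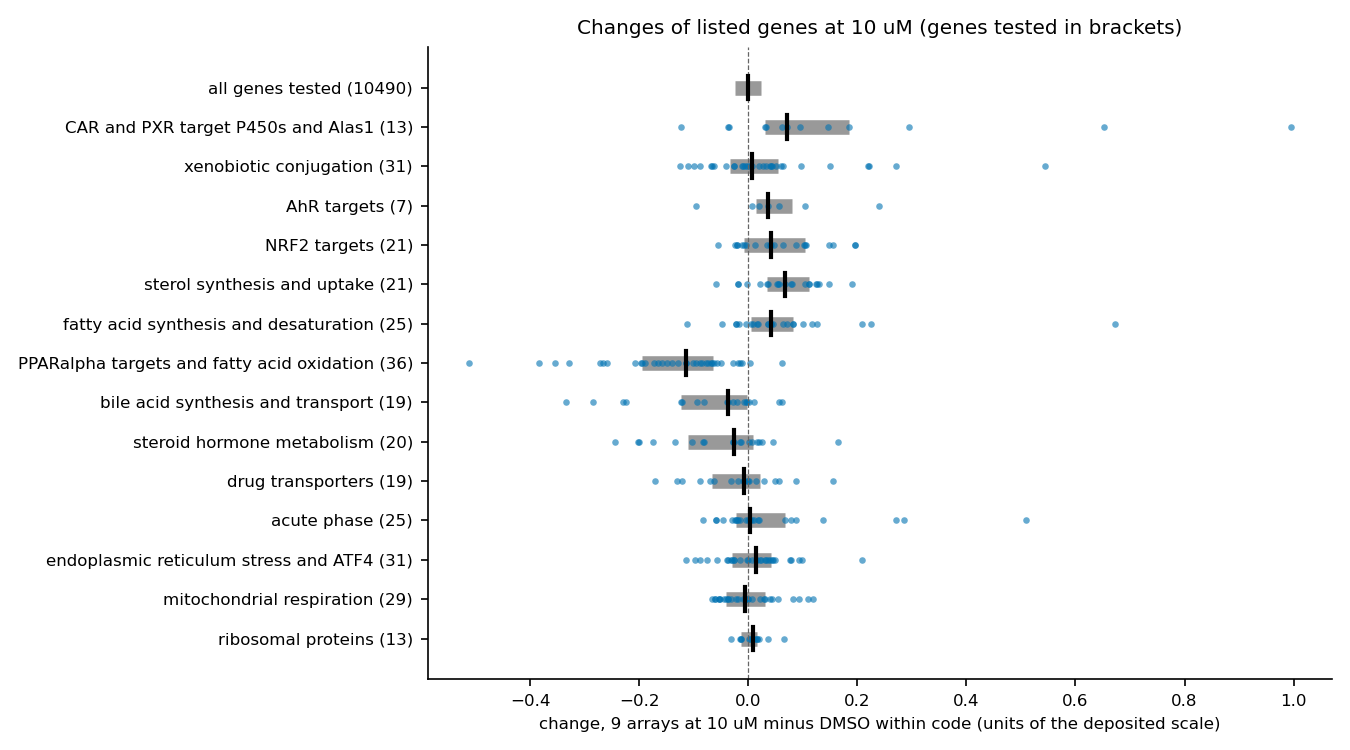
Change at 10 uM against DMSO within code (horizontal axis, units of the deposited scale) for the members of 14 gene lists and for all 10490 genes tested; points are genes, black marks are medians and grey bars span the interquartile range. The PPARalpha and fatty acid oxidation list lies left of 0 in 34 of 36 genes, and the CAR and PXR list reaches 0.99 with Cyp2c6v1.

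Genes of sterol synthesis and uptake lay above 0 in 17 of 21 cases, with a median of 0.068, and 7 had an unadjusted p below 0.05, all higher, where 160 of all genes tested were higher at that p (1.53%). On the values as deposited the median was 0.126. None was called over 35 arrays. In the 12-array fit 5 rose (Acat2, Pmvk, Mvd, Lss and Tm7sf2), or 23.8%, against 0.667% of all genes. That count was 0 or 1 when the DMSO array of any code was left out. By compound the list's median was -0.019 with myclobutanil, 0.093 with propiconazole and 0.16 with triadimefon, a difference between compounds that was not tested for the list. The level of Acat2 in codes Rs256, Rs293 and Rs304 was 1.02, 0.96 and 1.01 with DMSO, 0.999, 0.88 and 1.05 with myclobutanil, 1.16, 1.10 and 1.18 with propiconazole and 1.25, 1.27 and 1.26 with triadimefon. Acat2, the thiolase that makes the first precursor, was thus at DMSO level with myclobutanil and higher in all 3 codes with propiconazole and triadimefon. The level of Tm7sf2 in codes Rs256, Rs293 and Rs304 was 1.06, 1.38 and 1.14 with DMSO, 1.03, 1.49 and 1.20 with myclobutanil, 1.21, 1.59 and 1.47 with propiconazole and 1.27, 1.64 and 1.56 with triadimefon. Tm7sf2, a sterol reductase that acts right after Cyp51, changed by 0.19 (SE 0.059). Lss, lanosterol synthase, which makes the substrate of Cyp51, changed by 0.15 (SE 0.057). Cyp51, the mammalian counterpart of the fungal target, changed by 0.080 (SE 0.076), with 0.015 with myclobutanil, 0.057 with propiconazole and 0.17 with triadimefon, and was not called in either fit (limma adjusted p = 1 and 0.124).

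Of 25 genes of fatty acid synthesis and desaturation, 19 lay above 0 (median 0.041, by compound -0.024 with myclobutanil, 0.098 with propiconazole and 0.047 with triadimefon). In the 12-array fit 3 rose (12%, against 0.667% of all genes), namely Scd2, Fads1 and Pnpla3. The level of Fads1 in codes Rs256, Rs293 and Rs304 was 1.30, 1.82 and 1.73 with DMSO, 1.33, 1.94 and 1.76 with myclobutanil, 1.60, 1.95 and 2.09 with propiconazole and 1.66, 2.01 and 2.08 with triadimefon. Fads1, the delta-5 desaturase, changed by 0.21 (SE 0.083) and was higher in 9 of 9 arrays, and Fads2, the delta-6 desaturase, by 0.12 (SE 0.056) in 7 of 9. Pnpla3, a lipid droplet protein, changed by 0.23 (SE 0.099), higher in 9 of 9. Fasn, fatty acid synthase, changed by 0.043 (SE 0.072). On the values as deposited the list's median was 0.0742.

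Bile acid and steroid genes lay mostly below 0. Of 19 bile acid genes, 15 lay below 0 (median -0.038, or -0.0181 on the values as deposited). Slc27a2 and Baat, the bile acid conjugating enzyme (-0.23 (SE 0.10)), fell in the 12-array fit (10.5%, against 0.848% of all genes). Cyp8b1, sterol 12-alpha-hydroxylase, changed by -0.28 (SE 0.14), lower in 8 of 9 arrays. Of 20 genes of steroid hormone metabolism 13 lay below 0 (median -0.026), and of 33 hepatocyte function genes 22 (median -0.034). These last medians turned positive on the values as deposited (0.00833 and 0.0617), so their direction depended on the scaling. Rdh7, a retinol dehydrogenase, changed by -0.27 (SE 0.12) and Cxcl9, an interferon-induced chemokine, by 0.51 (SE 0.14), each in the same direction in 9 of 9 arrays. The medians of the remaining lists, among them the acute phase, endoplasmic reticulum stress, p53, cell cycle, mitochondrial respiration and ribosomal protein lists, lay between -0.022 and 0.014, with no gene called over 35 arrays. On the values as deposited these medians lay between -0.0073 and 0.112, with the ribosomal protein list at 0.112 and the acute phase list at 0.0812, and those of the retinoid, cell cycle, mitochondrial respiration, glucose and heme lists turned from negative to positive. In the 12-array fit, 16.7% of the heme list was called (Hmox1 and Blvrb higher), against 1.52% of all genes in either direction. The shares were 15% in the steroid hormone list (Cyp2c11 higher, Hsd3b5 and Cyp2c13 lower) and 9.09% in the hepatocyte function list. They were 8.7% in the glucose list, 8% in the acute phase list and 6.45% in the endoplasmic reticulum stress list. The p53, cell cycle, mitochondrial respiration and ribosomal protein lists had none.

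The 3 triazoles were compared in 3 pairs at the same dose and time, with p-values adjusted over 10490 genes and 3 pairs together. No difference was called over 35 arrays (0 of 31470, or 0%, limma), with 278 genes at an unadjusted p below 0.05 for propiconazole against myclobutanil, 33 for propiconazole against triadimefon and 224 for myclobutanil against triadimefon. Cyp2c6v1 was 0.38 higher with propiconazole than with myclobutanil (95% interval 0.11 to 0.64, limma adjusted p = 1) and 0.43 higher than with triadimefon (0.16 to 0.69, 1). Ugt2b1 differed by 0.095 between propiconazole and myclobutanil (-0.11 to 0.30) and by -0.020 between myclobutanil and triadimefon (-0.22 to 0.18). Scd2 was -0.76 with myclobutanil relative to triadimefon (95% interval -1.15 to -0.38, limma adjusted p = 1). In the 12-array fit 15 of 31470 differences were called, 9 between propiconazole and myclobutanil, 6 between myclobutanil and triadimefon and 0 between propiconazole and triadimefon. Scd2 (propiconazole minus myclobutanil 0.53, myclobutanil minus triadimefon -0.76) and Gstm2 (0.30 and -0.29) were in both sets. Acat2 and Mvd were lower and Angptl4 higher with myclobutanil than with triadimefon, by 0.28, 0.21 and 0.30.

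Myclobutanil, the nitrile, gave the change nearest to 0 of the 3 compounds in 5164 of all genes tested (49.2%), in 25 of the 36 PPARalpha and oxidation genes and in 16 of the 21 sterol genes. This was not particular to these lists. It held in 10 of 13 CAR and PXR genes, 20 of 29 mitochondrial respiration genes and 13 of 19 transporters. In other lists it was less frequent, with 3 of 13 ribosomal protein genes and 5 of 16 circadian clock genes. The sterol list lay above 0 in 6 of 21 genes with myclobutanil, 18 with propiconazole and 19 with triadimefon, whereas the PPARalpha list lay below 0 in 34, 35 and 33 of 36. Without myclobutanil in the pooled mean 5 genes were called, all higher: Cyp2c6v1, Ugt2b1, Cyp3a23-3a1, Crp and Scd2. The compounds share their DMSO arrays, so these counts are set side by side and were not tested against each other.

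**Figure D3:**
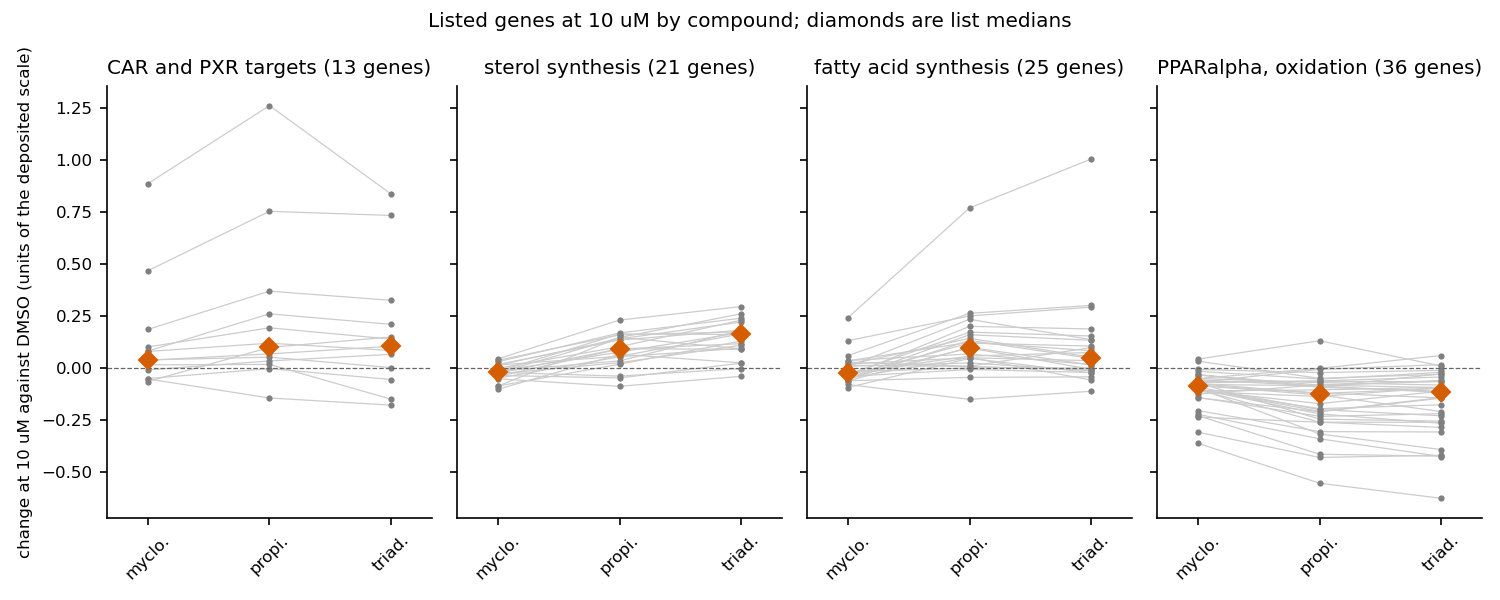
Change at 10 uM against DMSO (vertical axis, units of the deposited scale) by compound for the members of 4 lists; grey lines join the values of 1 gene and diamonds are list medians. The sterol medians are -0.019 with myclobutanil, 0.093 with propiconazole and 0.16 with triadimefon, and the PPARalpha and oxidation medians are -0.087 with myclobutanil, -0.12 with propiconazole and -0.11 with triadimefon.

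The response at 10 uM was set against the higher doses, which have treated arrays of their own. Changes against DMSO at every dose used the same 3 DMSO arrays, so they are not independent of each other. Between 30 and 10 uM, 4 genes were higher at 30 uM (0.0381%) and 1 was lower (0.00953%), and between 100 and 10 uM 1817 were higher (17.3%) and 1502 lower (14.3%). On the values as deposited the latter split was 677 higher and 925 lower. Genes of the low-dose response did not all go further up with dose. Cyp2c6v1 stood 0.99 at 10 uM, 1.27 at 30 uM and 1.33 at 100 uM above DMSO, and its step from 10 to 100 uM was 0.34 (SE 0.074, limma adjusted p = 0.00103). For Ugt2b1 the changes were 0.54 at 10 uM, 0.72 at 30 uM and 0.49 at 100 uM, with a step from 10 to 100 uM of -0.056 (SE 0.057, limma adjusted p = 0.477), and for Cyp3a23-3a1 they were 0.65 at 10 uM, 0.88 at 30 uM and 0.87 at 100 uM (step 0.22, limma adjusted p = 0.0644). Crp was lower at 100 than at 10 uM, by -0.13 (SE 0.039, limma adjusted p = 0.0113). Single arrays against DMSO ran from 0.0858 to 0.39 at 10 uM and from -0.223 to 0.412 at 100 uM for Crp. For Ugt2b1 they ran from 0.466 to 0.785 and from 0.0665 to 1.01. All of these genes were named for their values at 10 uM, and the steps reuse those arrays.

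Some of the lipid genes named above stood farther from DMSO at each higher dose, while others did not, such as the acyl-CoA synthetase Acsl1, with -0.25, -0.30 and -0.21 at 10, 30 and 100 uM. Scd2 stood 0.67 at 10 uM, 1.34 at 30 uM and 1.95 at 100 uM above DMSO and was 1 of the 5 genes called between 30 and 10 uM (limma adjusted p = 0.0176). The others were Acss2, which makes acetyl-CoA from acetate, Kctd14 and Rarres1 on the higher side and Amot on the lower. Cyp4a1 stood -0.51 at 10 uM, -0.88 at 30 uM and -1.53 at 100 uM, Ech1 -0.32 at 10 uM, -0.54 at 30 uM and -0.86 at 100 uM and Tm7sf2 0.19 at 10 uM, 0.39 at 30 uM and 0.55 at 100 uM, and each had a called step from 10 to 100 uM (limma adjusted p = 3.51e-07, 1.93e-07 and 4.49e-07). The median of the PPARalpha and oxidation list was -0.11, -0.18 and -0.36 at 10, 30 and 100 uM, that of the sterol list 0.068, 0.17 and 0.34, and that of the CAR and PXR list 0.071, 0.26 and 0.12.

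The positive controls were compared with the 10 uM arrays directly, without the DMSO arrays. No gene was called against phenobarbital (0%, limma, 218 at an unadjusted p below 0.05) or against PCN (0%, 314 at an unadjusted p below 0.05, PCN with 2 arrays). Against PCN, 33 genes were called once the arrays of Rs293 were left out, which leaves PCN with 1 array, so that these calls take the spread of PCN from the other groups. Cyp2c6v1 at 10 uM was below phenobarbital by 0.29 (95% interval of the difference -0.50 to -0.071), and Cyp3a23-3a1 differed by -0.027 (-0.29 to 0.23). Against DMSO the values of phenobarbital and PCN were 1.28 and 1.22 for Cyp2c6v1, 0.71 and 0.68 for Ugt2b1, and -0.72 and -0.71 for Cyp4a1. Such values share their DMSO arrays with those at 10 uM and are not independent of them. The sterol list had medians of 0.015 with phenobarbital and 0.11 with PCN, against 0.068 at 10 uM of the triazoles. For Tm7sf2 the changes were 0.043 and 0.080 with phenobarbital and PCN, against 0.19 at 10 uM of the triazoles. The difference of Tm7sf2 between 10 uM and phenobarbital was 0.15 (95% interval 0.025 to 0.27, limma adjusted p = 1).

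**Figure D4:**
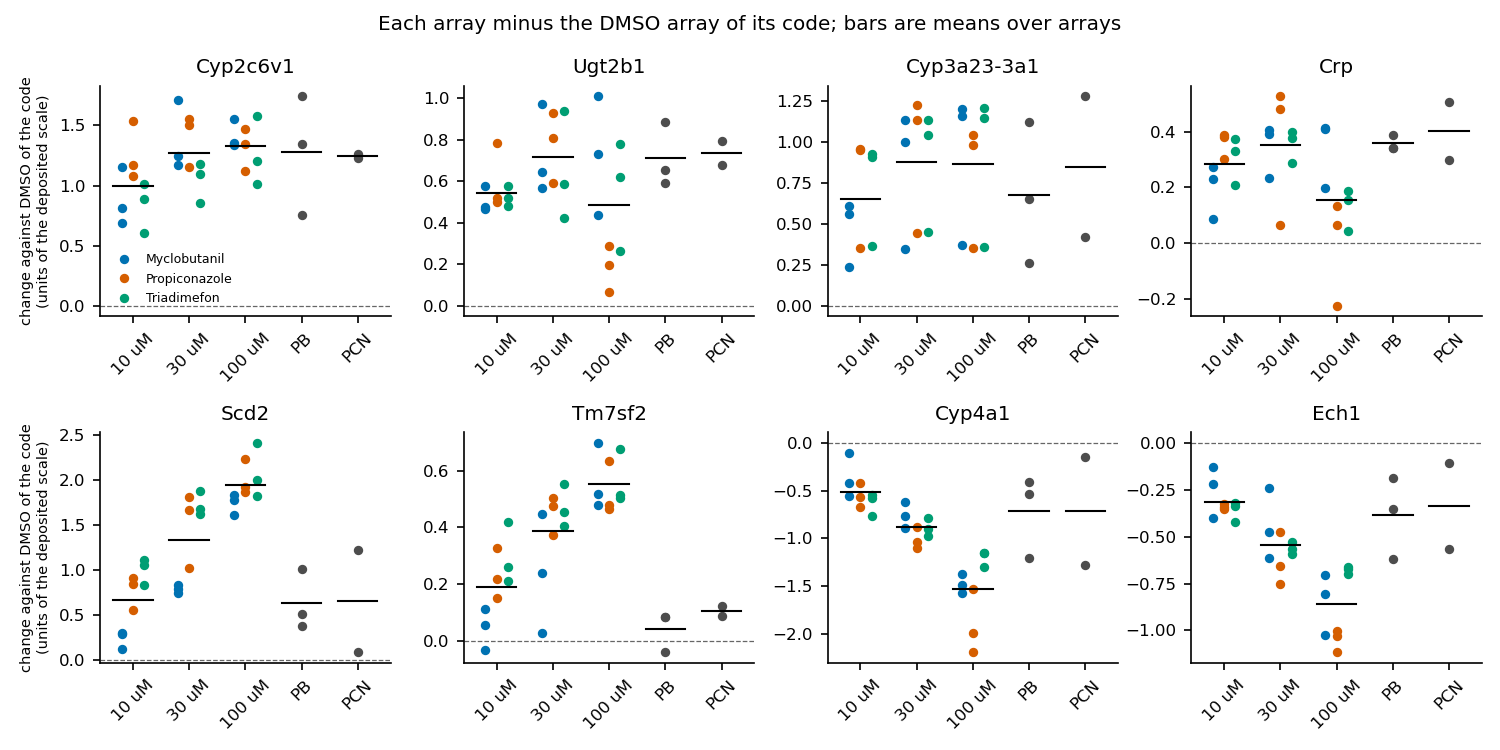
Change of each array against the DMSO array of its code (vertical axis, units of the deposited scale) for 8 genes at 10, 30 and 100 uM of the triazoles (9 arrays per dose), phenobarbital (PB, 3 arrays) and PCN (2 arrays); points are arrays, coloured by triazole, and bars are means over arrays. Means of Cyp2c6v1 run from 0.99 at 10 uM to 1.33 at 100 uM, while those of Scd2 run from 0.67 to 1.95.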

How the data were processed

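RNA of primary rat hepatocytes was labelled with biotin and measured on Affymetrix rat expression arrays, per the labels' protocols. The authors deposited 1 score per probe set and array on a log-like scale. Its base, summarisation and normalization are not given in the sources used here. The 31099 probe sets of 35 arrays were quantile normalized, which fixed Alb, the brightest, at one value. A gene was the probe set with the highest mean among those naming 1 gene (20826, with 436 naming several and 9780 none), tested if above the array median in at least 2 arrays (10490 of 14217 genes).

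limma 3.58.1 in R 4.3.3 was fitted over all arrays with 12 group means and the code as a fixed block (21 residual degrees of freedom), with two-sided tests and Benjamini-Hochberg adjustment at 0.05. Deviations from the group mean, for arrays of different groups sharing a code, correlated across genes at 0.689 to 0.952 in all 18 pairs, so codes pair the arrays. Those of different codes correlated at -0.739 to 0.288, which follows in part because deviations in a group sum to 0. Promoters were searched on both strands. The number of arrays limits the precision. The genes named by rule were the called genes and, with under 5 called in a direction, the 5 with the lowest p. Other genes were named after their values were seen, and the comparisons with phenobarbital and PCN and the settings of the 12-array fit were added then. The members and lists were chosen with earlier results of these data known. The fit was tested on simulated data. Alternatives covered scaling, block, filter, probe sets, arrays and compounds left out.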

Additional observations from a re-analysis of the deposited data

Results flagged for a closer look

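In the change against the DMSO array of the code, 1 of the 9 treated arrays lay far from the other 8 in 3 of the 10 named genes. Among groups of 9 independent values, chance alone sets such an array apart in about 1 of 20. The 9 changes come from 3 compounds and share a DMSO array within each code, so that rate need not hold here. For Ugt2b1 the array apart was propiconazole in Rs293, at 0.785 against 0.466 to 0.577 in the others. For Slc27a2 it was myclobutanil in Rs304, at -0.107 against -0.435 to -0.275. For Apmap it was the same myclobutanil array, at -0.0393 against -0.142 to -0.106. The cause was not tested.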

How the results depend on the processing

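With the replicate block, 2 genes were called in the pooled comparison and 1, 2 and 1 with myclobutanil, propiconazole and triadimefon, 5 between 30 and 10 uM and 3319 between 100 and 10 uM. With no replicate block these counts were 1, then 0, 1 and 0, then 0 and 1439, and with a random replicate block (consensus correlation 0.422) the pooled count was 4, myclobutanil and triadimefon had 0 each and the step from 10 to 30 uM 2. Without quantile normalization, on raw deposited values or median-centred ones, the pooled and single-compound counts were 0, the step to 30 uM had 3, and the step to 100 uM had 1602 and 1725. With the 12 arrays only, the pooled count was 159, the compounds had 2, 254 and 260, and 15 pair differences were called; averaging the 3 treated arrays of each code before pairing gave 110. A stricter filter gave 3 for triadimefon. When every probe set was tested the steps to 30 and 100 uM had 2 and 5140. A setting meant to average probe sets did not divide every gene by its own number of probe sets, so its counts are not given. The pooled mean without myclobutanil gave 5. The cause of these shifts was not tested.

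Leaving out arrays or a whole code gave 0 to 4 calls in the pooled comparison, 0 to 1 with myclobutanil, 1 to 3 with propiconazole, 0 to 4 with triadimefon, 0 to 36 between 30 and 10 uM, 1599 to 3407 between 100 and 10 uM and 0 to 33 against PCN. The array with the largest spread, propiconazole at 30 uM in Rs293, was left out as a choice made after seeing the data, with 3 pooled calls. Of 29 settings, the unevenly divided one among them, Cyp2c6v1 was called in 25 and Ugt2b1 in 24. Of 61 genes followed, leaving out arrays or a code moved the change of 21 by over 1.5 times, none of them called (among them Krt19, Cpt1a, Fabp1, Cyb5a, Fads1, Cyp51 and Baat), and 37 were newly called in the 12-array fit. Signs changed for Ppara, which ran from -0.046 to 0.033 as arrays or codes were left out, for Alas1, which ran from -0.00075 to 0.13, and for Fasn (-0.0033 without propiconazole). The labels name neither the log base nor what the code marks.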
